A study of Rattus norvegicus with 8 samples.

Results

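The small RNAs examined here are the miRNAs best known for acting on cholesterol and fatty acid metabolism, namely miR-33, miR-122, miR-128, miR-185 and miR-378, in rat bone around titanium implants. Members were all rows of the deposited table named rno-miR-33, miR-122, miR-128, miR-185, miR-378a or miR-378b, with any copy number or arm. This gave 11 of the 974 miRNAs listed, and 11 of the 604 named as catalogued rat miRNAs (rno-), the others being predictions. Of the 11, 7 had enough reads to be tested and 4 did not. The members were both arms of miR-33, miR-122 and miR-378a, the 5p arm of miR-185, miR-378b, and miR-128-3p with its 5p arms miR-128-1-5p and miR-128-2-5p.

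Hyperlipidemic rats were set against normal ones. Male Wistar rats were given a high-fat diet for 8 weeks in the hyperlipidemic group, and a normal diet for the same 8 weeks in the other. All rats of both groups then carried root-form titanium implants in the shafts of both femurs, so no bone without an implant was compared. Femur bone within 1 mm of the implant was taken 10 days after implantation, at 12 to 13 weeks of age, and small RNA was sequenced in 4 libraries per group. The labels do not say whether a library came from 1 rat or from several, so p-values measure the spread between these libraries, which may be technical in part.

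A miRNA is cut from a hairpin, whose 5p and 3p arms can each be loaded into a silencing complex. Bases 2 to 8 of the loaded arm, the seed, pair with target messenger RNAs and lower their output. MiR-33 lies within Srebf2, the gene of the sterol-sensing transcription factor SREBP2, and in mice and human cells it represses the cholesterol exporter ABCA1. MiR-128 and miR-185 have been described in human and mouse cells as acting on ABCA1, the LDL receptor or SREBP2. MiR-122 is the defining miRNA of hepatocytes and sustains hepatic cholesterol and fatty acid synthesis in mice. MiR-378a is encoded within Ppargc1b, the gene of the coactivator PGC-1β, and in mice it acts on mitochondrial fatty acid use.

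The mature sequences show which arms can act alike. Of the 11 members 10 were matched by name in RefSeq (GRCr8), and the 7 that carry most of the values are given 5′ to 3′, with the seed in capitals, beside miR-27a-3p, in which the capitals mark the 7 letters of the miR-128 seed.
rno-miR-33-5p: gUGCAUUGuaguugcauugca
rno-miR-33-3p: cAAUGUUUccacagugcauca
rno-miR-122-5p: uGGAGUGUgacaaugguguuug
rno-miR-128-3p: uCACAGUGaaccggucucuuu
rno-miR-185-5p: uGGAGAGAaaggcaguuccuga
rno-miR-378a-3p: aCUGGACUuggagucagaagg
rno-miR-378a-5p: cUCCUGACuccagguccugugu
rno-miR-27a-3p: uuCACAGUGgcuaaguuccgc

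No 2 of the 7 members shown share a seed, and among the 544 of the 604 catalogued miRNAs that have a mature sequence in RefSeq no other has the seed of any of them. MiR-378b was not part of this search. The seed of miR-128-3p begins at base 2, and the same letters stand at base 3 of miR-27a-3p and miR-27b-3p, a pair of miRNAs also described as acting on ABCA1. The arms miR-128-1-5p and miR-128-2-5p share the seed GGGGCCG with each other and 16 of 21 bases in all. MiR-128-3p itself has 1 sequence in the hairpins Mir128-1 and Mir128-2, so its reads cannot be assigned to either. In GRCr8 the hairpins of miR-33, miR-378a, miR-185, miR-128-1 and miR-128-2 lie within the spans of Srebf2, Ppargc1b, Tango2, R3hdm1 and Arpp21, each on the strand of that gene, and Mir378b lies within the span of Ncoa2.

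Levels are reads per 1000000 (RPM) on the scale of the catalogued class. That scale rested on 4809895, 3150908, 2643509 and 3338291 reads in hyperlipidemic libraries 1 to 4 and on 1748969, 1395997, 990800 and 1558470 in normal libraries 1 to 4, so every hyperlipidemic library was the deeper. Normal replicates 3 and 4 stood apart from the rest. Their summed red-cell miRNAs (all 5 of the list for miR-144, miR-451 and miR-486) were at 76453 and 67795 RPM, against 159078 RPM and above in the other 6 libraries, and their summed leukocyte miRNAs (all 6 for miR-142, miR-223 and miR-150) were at 81157 and 54726 RPM, against 132889 RPM and above. Most of the red-cell sum was miR-144-3p and miR-451-5p, with means of 105090 and 59580 RPM. The red-cell rows did not all move alike between hyperlipidemic and normal libraries. Of the 5, 2 had log2 differences above 0 (1.52 for miR-144-3p) and 3 below (-0.14 for miR-486). Log2 differences of the tested members and of their arm ratios are given with and without normal replicates 3 and 4. Shares, other ratios and correlations were not recomputed without these libraries. MiRNAs of bone-forming and mesenchymal cells (7 for miR-199a, miR-214 and miR-218a) summed to 23190 to 50191 RPM in hyperlipidemic and 30423 to 62665 RPM in normal libraries. Most of that sum was miR-199a-5p and miR-199a-3p, with means of 19954 and 19030 RPM. Of the 7, 4 had enough reads to be tested, with log2 differences below 0 in 3 and above 0 in 1. These mesenchymal miRNAs were thus present, together with abundant red-cell and leukocyte miRNAs, whose source was not tested. No marker in these 3 lists was at 0 in every library. In such bulk tissue, fewer cells of a type and less RNA per cell cannot be told apart.

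Between hyperlipidemic and normal bone, 0 of the 7 tested members passed the threshold, a Benjamini-Hochberg adjusted p under 0.05 over the 696 miRNAs tested with limma. Over all miRNAs tested 0.718% passed, 5 predicted miRNAs that are no members. MiR-378 stood lower in hyperlipidemic libraries in each of its 3 rows, miR-33-5p stood higher, and miR-185-5p and miR-33-3p lay near 0. At an unadjusted p under 0.05 there were 3 members, all of the miR-378 family and all lower, against 15.7% of the 396 catalogued miRNAs tested (12.6% lower). This count of 3 was 1 with median-of-ratios scaling, 1 without hyperlipidemic replicate 3 and 1 without normal replicates 3 and 4. The voom test on recovered reads likewise passed 0 members, with the same number of 3 under an unadjusted p of 0.05. The median log2 difference of the 7 was -0.52, against -0.20 over the 396 catalogued miRNAs, and 5 of the 7 lay below 0, as did 61.9% of the 396.

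**Figure D1:**
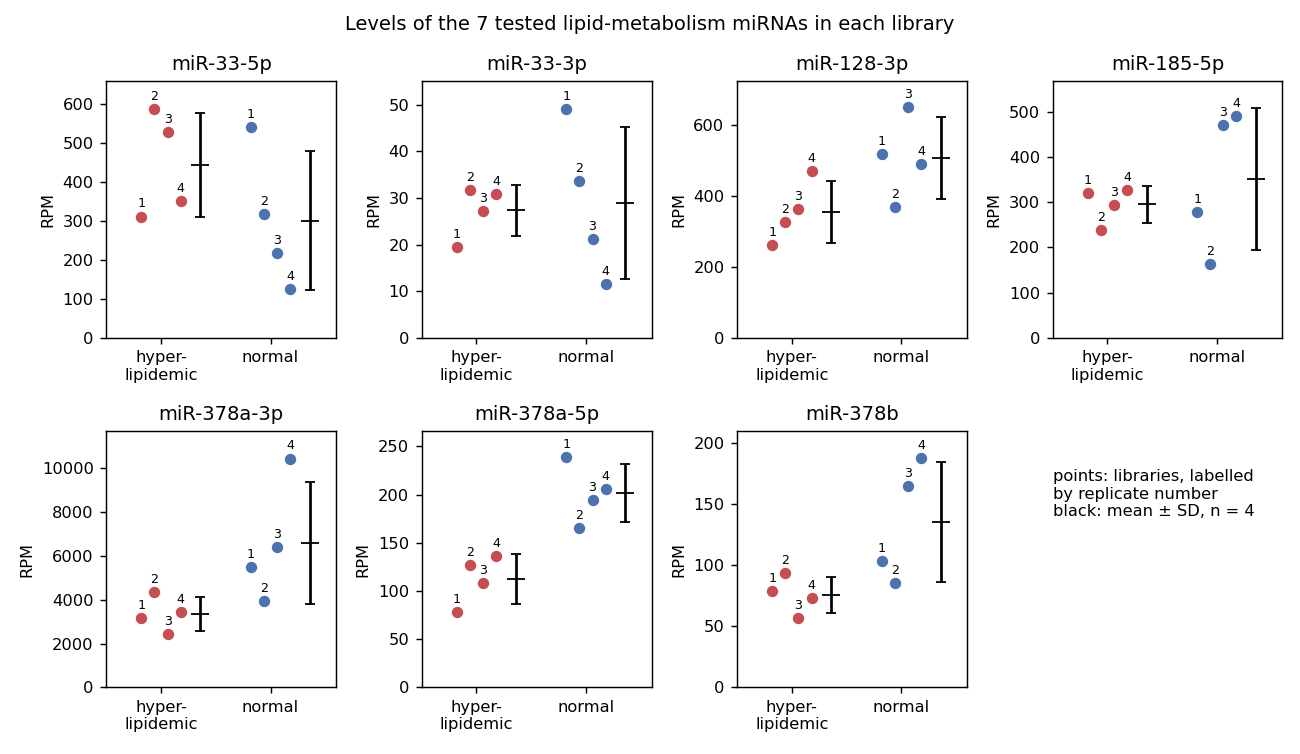
Level in RPM (linear axes from 0) of the 7 tested members in each hyperlipidemic and normal library, labelled by replicate number, with the mean ± SD of 4 libraries in black. The groups are separate for miR-378a-5p and overlap for the other 6, and normal replicates 3 and 4 lie at the low end for miR-33-5p (218.01 and 126 RPM) and the high end for miR-185-5p (470 and 492 RPM).

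MiR-378a-3p was by far the most abundant member, rank 35 of 604 by its mean of 4961 RPM over the 8 libraries. It stood at 3152, 4347, 2441 and 3458 RPM in hyperlipidemic libraries 1 to 4, against 5504, 3928, 6417 and 10443 RPM in normal libraries 1 to 4. The highest hyperlipidemic value lay above the lowest normal one, and normal replicate 4 was far above the rest. The means were 3349.7 ± 789.7 RPM in hyperlipidemic and 6573 ± 2777 RPM in normal libraries (SD, n = 4 each), with a log2 difference of -0.91 (SE 0.32, 95% interval -1.64 to -0.18, limma adjusted p = 0.194). All 4 hyperlipidemic libraries were below the normal mean. The log2 difference was -0.50 when normal replicates 3 and 4 were left out, over 1.5 times nearer to 0.

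The other arm of the same hairpin, miR-378a-5p, was the one tested member in which the groups did not overlap, 1 of 7 against 11.6% of catalogued miRNAs. It stood at 78.4, 127, 108 and 136.6 RPM in hyperlipidemic libraries, against 238, 165, 195 and 205.97 RPM in normal ones. Every hyperlipidemic library was below every normal one, with 285 to 456 reads behind each hyperlipidemic value and 193 to 417 behind each normal value. The log2 difference was -0.86 (SE 0.27, 95% interval -1.46 to -0.25, limma adjusted p = 0.153). It was -0.85 when normal replicates 3 and 4 were left out. Here the 2 libraries that stood apart did not carry the difference.

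MiR-378b, a related copy whose reads the counting may have split with those of miR-378a-3p, stood at 79.2, 93.3, 57.1 and 73.4 RPM in hyperlipidemic libraries, against 103.49, 85.2, 165 and 188 RPM in normal ones. Its values followed those of miR-378a-3p closely, with 39.0 to 55.5 times as much miR-378a-3p as miR-378b in all 8 libraries. The groups overlapped through normal replicate 2 alone. The log2 difference was -0.78 (SE 0.33, limma adjusted p = 0.258). It was -0.33 when normal replicates 3 and 4 were left out. The 3 rows of the family are thus not independent of each other: a pair of arms from 1 hairpin and a copy that tracks one of them.

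MiR-378a is also abundant in striated muscle, which was removed from the bone before extraction, per the labels. The 13 miRNAs of the muscle list (miR-1, miR-133a, miR-133b, miR-206, miR-208a, miR-208b and miR-499) summed to 4346, 1809, 186 and 2818 RPM in hyperlipidemic libraries, against 1758, 516, 2945 and 375 RPM in normal ones. None of the 13 was at 0 in every library, but only 9 had enough reads to be tested. MiR-133b-5p and miR-208b-5p stood at 0.21 RPM in hyperlipidemic replicate 1 and at 0 in every other library. MiR-1b, outside that list and added after its values were seen, differs from miR-1-3p in 1 of 22 bases, so counting may have split reads between them. With miR-1b the sums were 7769, 2597, 247 and 4469 RPM in hyperlipidemic libraries, against 2443, 820.2, 5451 and 663 RPM in normal ones. With or without miR-1b, hyperlipidemic replicate 3 was lowest both in these sums and in miR-378a-3p, and normal replicate 3 had the highest sum of its group and, after replicate 4, the most miR-378a-3p. Normal replicate 4, with the most miR-378a-3p, was among the 3 libraries with the lowest sums, and hyperlipidemic replicate 1, with the highest sum, had less miR-378a-3p than any normal library. The part of muscle in the miR-378 values was not tested. The summed red-cell miRNAs moved the other way from miR-378a-3p, at 248574, 205487, 300814 and 170495 RPM in hyperlipidemic libraries and 178821, 159078, 76453 and 67795 RPM in normal ones. When catalogued values were rescaled without the red-cell list, the log2 differences were -0.73 for miR-378a-3p, -0.67 for miR-378a-5p and -0.60 for miR-378b.

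**Figure D2:**
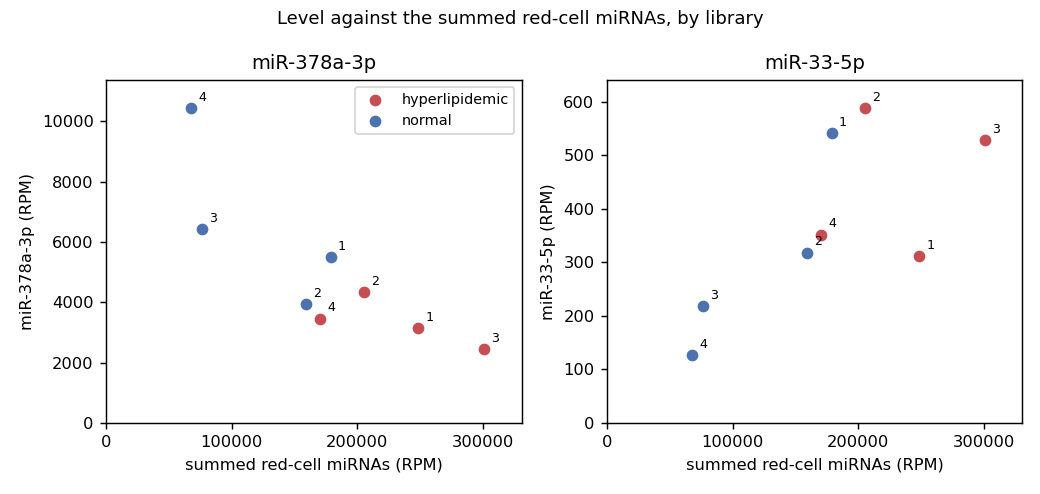
Level in RPM of miR-378a-3p and of miR-33-5p (vertical axes) against the summed red-cell miRNAs (RPM, horizontal axes), 1 point per library labelled by replicate number. Normal replicates 3 and 4, lowest in this sum, have the highest miR-378a-3p (6417 and 10443 RPM) and the lowest miR-33-5p (218.01 and 126 RPM).

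MiR-33-5p, an arm described as repressing ABCA1, had the highest log2 difference of the tested members, with an interval that crossed 0. It stood at 311, 587, 528 and 352 RPM in hyperlipidemic libraries, against 542, 318, 218.01 and 126 RPM in normal ones. Normal replicate 1 lay among the hyperlipidemic libraries, and normal replicates 3 and 4 lay below all of them. The means were 445 ± 134 and 300.96 ± 179 RPM in hyperlipidemic and normal libraries (SD, n = 4 each), with a log2 difference of 0.71 (SE 0.44, 95% interval -0.29 to 1.71, limma adjusted p = 0.392). Without normal replicates 3 and 4 it was 0.05, and without normal replicate 4 alone 0.36, so this estimate rested on those libraries. Normal replicate 1 moved it the other way, to 1.06 when left out. Normal replicates 3 and 4 were also the libraries with the lowest sums of red-cell and of leukocyte miRNAs, whose part in the value was not tested.

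The 3p arm of miR-33 did not share that estimate. MiR-33-3p stood at 19.5, 31.7, 27.2 and 30.9 RPM in hyperlipidemic libraries, against 49.2, 33.7, 21.2 and 11.6 RPM in normal ones. The log2 difference was 0.09 (SE 0.47, 95% interval -0.98 to 1.15, limma adjusted p = 0.934). It was -0.28 without normal replicate 4 and -0.59 without normal replicates 3 and 4, so its direction was not stable.

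The balance between the arms of miR-33 did not rest on normal replicates 3 and 4. Both arms come from this hairpin, given 5′ to 3′ with the 5p arm and then the 3p arm in capitals because the ratio compares them.
Mir33: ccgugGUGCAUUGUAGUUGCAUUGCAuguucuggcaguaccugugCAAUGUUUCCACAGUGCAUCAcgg
Since both arms are measured in 1 library, their ratio does not depend on how that library was scaled. MiR-33-5p was 15.9, 18.5, 19.4 and 11.4 times as abundant as miR-33-3p in hyperlipidemic libraries, against 11.0, 9.45, 10.3 and 10.9 times in normal ones. Every hyperlipidemic ratio was above every normal one, hyperlipidemic replicate 4 by little. The difference in log2 ratio was 0.62. Its two-sided exact permutation p was 0.0286, the smallest that 4 against 4 libraries allow. Adjusted over the 2 hairpins of members with both arms tested it was 0.0571, which did not pass. It could have passed only if miR-378a had also reached that smallest p, so this test decides little. Without normal replicates 3 and 4 the difference in log2 ratio was 0.64.

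The 3p arm rested on few reads in the normal group. It made up 5.90%, 5.13%, 4.90% and 8.07% of the reads of both arms in hyperlipidemic libraries, from 72 reads or more each, against 8.32%, 9.57%, 8.86% and 8.41% in normal libraries, from 86, 47, 21 and 18 reads. The exact (Clopper-Pearson) 95% interval was 6.63% to 9.70% in hyperlipidemic replicate 4 and 5.06% to 13.0% in normal replicate 4, and such intervals cover counting error only. Over all 127 catalogued hairpins with both arms tested, 11.8% had ratios without overlap between the groups, and 3.15% had them higher in hyperlipidemic libraries. In a limma fit over these 127 hairpins, added after the values were seen, 0 passed with 26 at an unadjusted p under 0.05, and the adjusted p of miR-33 was 0.231.

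The arms of miR-378a kept no such difference. MiR-378a-3p was 40.2, 34.3, 22.6 and 25.3 times as abundant as miR-378a-5p in hyperlipidemic libraries, against 23.1, 23.7, 32.9 and 50.7 times in normal ones. The groups overlapped, and the log2 ratio of 5p over 3p differed by 0.06 (two-sided exact permutation p = 0.914, adjusted 0.914). The ratio spread as widely within the groups, from 22.6 to 40.2 in hyperlipidemic and from 23.1 to 50.7 in normal libraries.

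**Figure D3:**
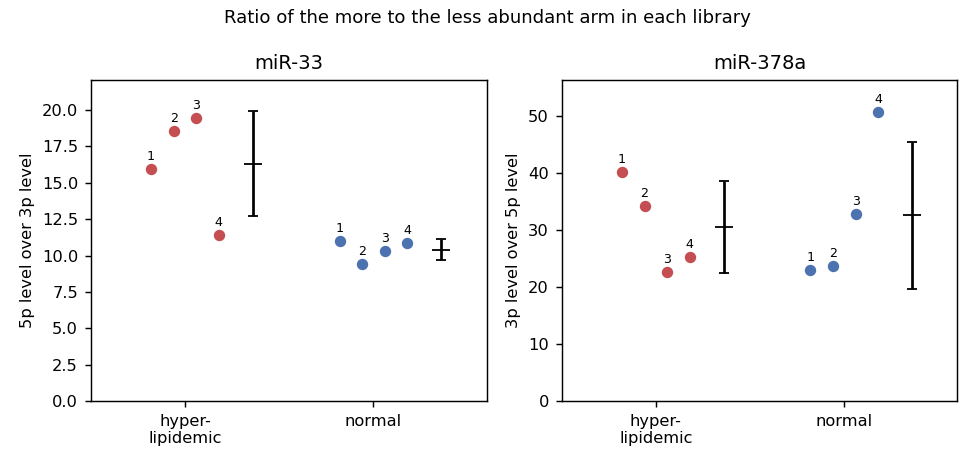
Ratio of the more to the less abundant arm of miR-33 (5p over 3p) and of miR-378a (3p over 5p) in each library, labelled by replicate number, with the mean ± SD of 4 libraries in black. For miR-33 the hyperlipidemic libraries reach from 11.4 to 19.4 and the normal ones from 9.45 to 11.0, and for miR-378a the groups overlap.

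MiR-128-3p stood at 262, 327, 364 and 471 RPM in hyperlipidemic libraries, against 518, 368, 652 and 492 RPM in normal ones. Only hyperlipidemic replicate 4 lay above a normal library. The means were 356 ± 87.5 and 507 ± 116 RPM in hyperlipidemic and normal libraries (SD, n = 4 each), with a log2 difference of -0.52 (SE 0.27, 95% interval -1.13 to 0.10, limma adjusted p = 0.320). It was -0.33 without normal replicates 3 and 4. MiR-128 is high in brain. The neural list (7 for miR-9a, miR-124, miR-137 and miR-219a) summed to 186 to 212 RPM in hyperlipidemic and 152 to 193 RPM in normal libraries. Its largest part in every library was miR-219a-5p. Next came miR-9a-5p, at 29.2 to 42.5 RPM in hyperlipidemic and 27.9 to 68.0 RPM in normal libraries. Log2 differences were 0.46 for miR-219a-5p, -0.34 for miR-9a-5p and 0.34 for miR-9a-3p. The neuron-defining miR-124-3p stood at 1.04 to 5.39 RPM in hyperlipidemic and 2.02 to 6.86 RPM in normal libraries, and miR-137-3p was at 0 in all but hyperlipidemic replicate 4. The 5p arms of miR-128 were barely detected, with 6 reads over the hyperlipidemic and 4 over the normal libraries for miR-128-1-5p, and 3 and 7 reads for miR-128-2-5p. The RPM values of miR-128-2-5p did not overlap, at 0 to 0.32 in hyperlipidemic and 0.57 to 2.57 in normal libraries, but most of these values are 1 read at different depths, and the member was too low to be tested. The authors' deposited table gives it an unadjusted p of 0.0458 and an adjusted p of 0.361.

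MiR-185-5p stood at 320, 238, 294 and 327 RPM in hyperlipidemic libraries, against 279, 163, 470 and 492 RPM in normal ones. The normal libraries lay on both sides of the hyperlipidemic ones, with replicates 3 and 4 above and replicate 2 below all of them. The means were 295 ± 40.3 and 351 ± 157 RPM in hyperlipidemic and normal libraries (SD, n = 4 each), and the log2 difference was -0.13 (SE 0.37, 95% interval -0.96 to 0.70, limma adjusted p = 0.862). It was 0.45 without normal replicates 3 and 4 and -0.45 without normal replicate 2. Its sign also turned with the scaling, to 0.083 with median-of-ratios factors and 0.055 when rescaled without the red-cell list.

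The liver miRNA miR-122 was close to absent from this bone. MiR-122-5p stood at 0.62, 0.32, 0 and 3 RPM in hyperlipidemic libraries (3, 1, 0 and 10 reads), against 0, 1.43, 8.07 and 2.57 RPM in normal ones (0, 2, 8 and 4 reads). A count of 0 allows up to 1.13 RPM in hyperlipidemic replicate 3 and up to 1.72 RPM in normal replicate 1, taking 3 reads as the limit. Each group held 14 reads in all, from deeper libraries in the hyperlipidemic group, and the means were 0.985 ± 1.37 RPM in hyperlipidemic and 3.02 ± 3.53 RPM in normal libraries (SD, n = 4 each). The member was too low to be tested. The exact Poisson 95% interval of the 8 reads of normal replicate 3 ran from 3.45 to 15.8 reads. MiR-122-3p had 1 read in all, in normal replicate 4. Other miRNAs high in liver, miR-192-5p and miR-194-5p, which other epithelia also express, stood at 157 to 260.01 and 123.91 to 176 RPM in hyperlipidemic and 193.78 to 683 and 132.52 to 227 RPM in normal libraries.

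**Figure D4:**
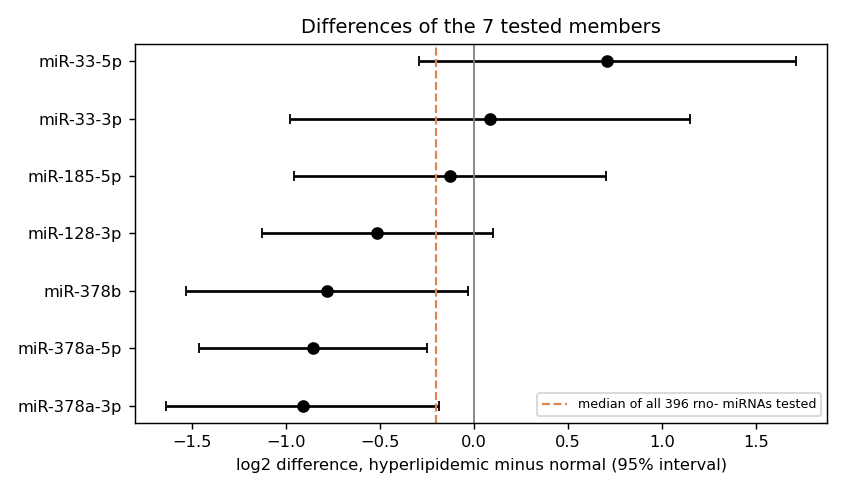
Log2 difference of hyperlipidemic minus normal for the 7 tested members with its 95% interval from limma. The interval reaches above 0 for miR-33-5p, miR-33-3p, miR-185-5p and miR-128-3p and lies below 0 for the 3 rows of miR-378, and the dashed line marks the median of -0.20 over all 396 catalogued miRNAs tested.

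Ordered by mean RPM over the 8 libraries, miR-378a-3p stood above every other member in every library. Below it came miR-128-3p (432 RPM), miR-33-5p (373 RPM) and miR-185-5p (323 RPM), which changed places: miR-128-3p exceeded miR-33-5p in 4 of 8 libraries and miR-33-5p exceeded miR-185-5p in 5 of 8. MiR-378a-5p (157 RPM) exceeded miR-378b (105.53 RPM) in 7 of 8 libraries, and miR-33-3p (28.1 RPM) was below both in all 8. MiR-122-5p averaged 2.00 RPM, and the other 3 members stayed under 1 RPM on average. Adapter ligation favours some sequences, so this order is one of reads and need not be one of molecules.

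The miR-378 family held 0.369%, 0.513%, 0.287% and 0.414% of the catalogued signal in hyperlipidemic libraries, against 0.659%, 0.470%, 0.793% and 1.24% in normal ones. That was 68.2% to 79.4% of the signal of all 11 members in hyperlipidemic and 80.8% to 90.6% in normal libraries. The ranges came close, at 79.4% in hyperlipidemic replicate 2 and 80.8% in normal replicate 1, and the 90.6% was normal replicate 4. How often shares of other chosen sets would lie apart in this way was not examined. This share is a description of chosen members and was not tested. MiR-33 held 0.0369% to 0.0695% of the catalogued signal in hyperlipidemic and 0.0157% to 0.0666% in normal libraries.

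The miRNAs most alike in pattern differed between members. Likeness was Pearson's r of log2 levels over the 8 libraries, and is given as a description. These libraries differed in depth and in red-cell and leukocyte miRNAs, whose part in the r values was not tested. For miR-378a-3p these were miR-351-5p (r = 0.97), miR-874-3p (0.96) and miR-28-3p (0.93), and miR-351-5p ranged from 174 to 383 RPM in hyperlipidemic and 411 to 1016 RPM in normal libraries. For miR-128-3p they were miR-672-5p (0.94), miR-218a-5p (0.94) and miR-3559-3p (0.91). For miR-33-5p they were miR-103-2-5p (0.92), miR-15a-5p (0.91) and the red-cell miRNA miR-451-5p (0.90), which stood at 35808 and 20265 RPM in normal replicates 3 and 4 and at 61111 RPM or more in the other 6 libraries.

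Other miRNAs described in cholesterol, fatty acid and insulin biology gave no call either. Of 46 such rows 41 were tested and 0 passed by limma. At an unadjusted p under 0.05 there were 5, 4 lower and 1 higher, against 15.7% of the 396 catalogued miRNAs tested (12.6% lower). The median log2 difference of the 41 was -0.37, beside -0.20 over the catalogued miRNAs. Of the 41, 29 lay below 0 and 12 above, beside 61.9% of the 396 below 0. MiR-27a-3p, which holds the miR-128 seed letters, stood at 26513 ± 3603 RPM in hyperlipidemic and 19515 ± 7709 RPM in normal libraries (SD, n = 4 each; log2 difference 0.52, SE 0.31, limma adjusted p = 0.357), the opposite sign to miR-128-3p. MiR-148a-3p, which represses the LDL receptor, was at a log2 difference of -0.76 (SE 0.35, limma adjusted p = 0.290), and miR-30c-5p, which acts on the lipid transfer protein MTP, at -0.40 (SE 0.19, adjusted p = 0.294). MiR-29a-3p (-0.03, SE 0.20) and miR-26a-5p (-0.18, SE 0.24) lay near 0. The 8 most abundant also included the red-cell miR-144-3p (1.52, SE 0.48), the leukocyte miR-223-3p (0.38, SE 0.36) and the widely expressed miR-21-5p (-0.89, SE 0.28), so the list is not one of lipid biology alone.

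The authors' deposited table marks all 11 members as "no change". Its log2 fold of hyperlipidemic over normal is -0.87 for miR-378a-3p (adjusted p = 0.379), -0.83 for miR-378a-5p (adjusted p = 0.285) and 0.78 for miR-33-5p (adjusted p = 0.568), by a test not given in the sources used here.

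**Figure D5:**
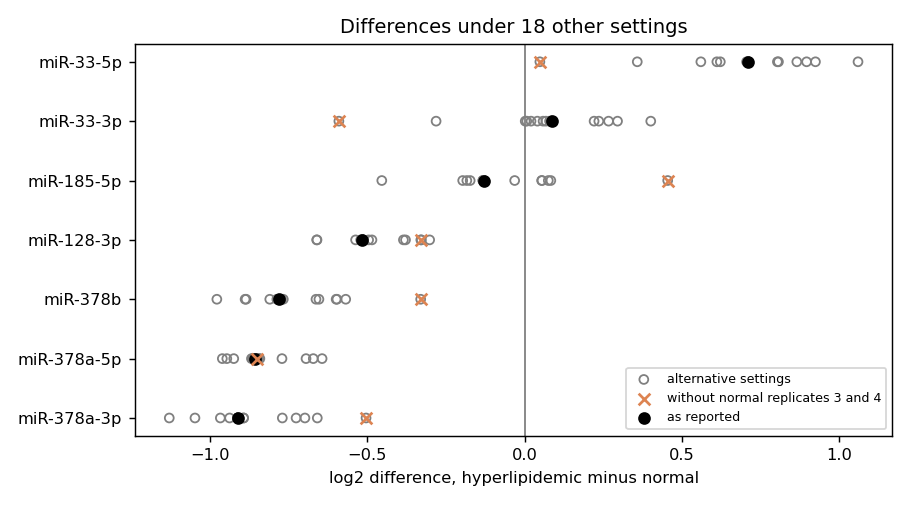
Log2 difference of hyperlipidemic minus normal for the 7 tested members as reported (black), and under 18 other settings (open circles, with a cross for the setting without normal replicates 3 and 4). The 3 rows of miR-378 and miR-128-3p stay below 0 throughout and miR-33-5p stays above it, down to 0.05, while miR-33-3p and miR-185-5p fall on both sides.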

How the data were processed

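The authors deposited 1 table of 974 miRNAs, in which the signal of each library is named FPKM in the file name but behaves as reads per 1000000, scaled separately for the 604 catalogued and the 370 predicted miRNAs. Within 0.1 read, 100% of the values up to 20 reads in each class and library were whole multiples of the worth of 1 read, and reads were recovered from these steps. Per the submitters' processing notes, bcl2fastq 1.8.4 and the build Rnor_6.0 were used, and how reads were aligned and counted was not given in the sources used here. From the authors' own comparison, the log2 of the deposited fold (hyperlipidemic over normal), with its p-value and adjusted p-value, is cited. MiRNAs above 0 in at least 4 libraries with a mean of at least 2.375 RPM (396 catalogued among 696) were fitted with limma 3.58.1 in R 4.3.3 on log2(RPM + 0.475), with a variance trend, two-sided. The pseudocount is the smallest value above 0 in a library, taken as the median of the 8 libraries. Since the 2 classes have steps of their own, a count model was not the main test. Arm ratios were compared by exact permutation. All members were named, with the 3 miRNAs most alike to each of the 3 most abundant members, the 8 most abundant other lipid miRNAs and up to 3 per marker list; miR-124-3p and miR-137-3p were added after their values were seen. Alternatives changed the pseudocount, filter, scaling, classes fitted, variance trend, test (voom), replicate block and libraries. The members, lists and alternatives were chosen with earlier results of these data known. The code was tested on simulated data.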

Additional observations from a re-analysis of the deposited data

Results flagged for a closer look

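MiR-122-3p stood at 0.64 RPM in normal replicate 4 and at 0 in the other 3 normal libraries, so that this sample lay far from the rest of its group. The value is 1 read. Of 26 groups of 4 values examined, 1 was singled out in this way, and chance singles out about 1 in 20.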

How the results depend on the processing

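No member passed the adjusted threshold under any of the 18 alternatives to the limma fit. The log2 difference of miR-378a-3p ran from -1.13 to -0.50, miR-378a-5p from -0.96 to -0.64, miR-378b from -0.98 to -0.33, miR-128-3p from -0.66 to -0.30 and miR-33-5p from 0.05 to 1.06, each with 1 sign, and the lowest adjusted p of any member was 0.112, for miR-378a-5p by voom. Signs reversed for miR-33-3p without normal replicates 3 and 4 (-0.59), and for miR-185-5p with those left out (0.45), with median-of-ratios factors (0.083) and rescaled without the red-cell list (0.055). Leaving out 1 library at a time, miR-33-3p ran from -0.28 to 0.40, miR-185-5p from -0.45 to 0.075 and the arm ratio of miR-378a from -0.18 to 0.20, and that ratio was -0.35 without normal replicates 3 and 4. The arm ratio of miR-33 ran from 0.53 to 0.79 with 1 library left out. Members with an unadjusted p under 0.05 numbered 1 to 4 with 1 library left out, 1 with median-of-ratios factors and 1 without normal replicates 3 and 4. Over the whole table, 12 miRNAs passed with 5 times the pseudocount, 0 with 1 read as the pseudocount, 8 with median-of-ratios factors, 3 among catalogued miRNAs alone, 0 by voom on recovered reads, and 0 to 12 with 1 library left out (0 without hyperlipidemic replicate 1, 2 or 3, and 12 without normal replicate 1); the cause was not tested. Median-of-ratios factors moved the median log2 difference of all miRNAs tested from -0.10 to 0.11 and that of the members from -0.52 to -0.30.

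Replicate numbers are shared between the groups, and the labels do not say whether same-numbered libraries were processed together. The deviations of same-numbered libraries correlated at 0.14, -0.37, -0.32 and -0.01. Such values, from groups of 4 libraries, cannot decide whether the numbers pair them. With the replicate number as a block 0 miRNAs passed over the table, 2 members had an unadjusted p under 0.05, and the difference of miR-378a-5p had an adjusted p of 0.280. For the arm ratio of miR-33 the difference of 0.62 is the same in same-numbered pairs by construction (exact sign-flip permutation p = 0.125, the smallest that 4 pairs allow). Depth limits miR-122 and the 5p arms of miR-128, which had at most 10 reads in any library.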

Other observations

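The ratio of the summed miR-27a-3p and miR-27b-3p, which carry the letters of the miR-128 seed, to miR-128-3p was 127, 112, 70.016 and 70.6 in hyperlipidemic libraries, against 62.6, 81.3, 30.1 and 51.2 in normal ones. Normal replicate 2 lay above hyperlipidemic replicates 3 and 4, so the groups overlapped. The ratio was not tested.

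Within libraries, miR-378a-3p exceeded miR-33-5p by 10.1, 7.40, 4.62 and 9.83 times in the hyperlipidemic group and by 10.2, 12.4, 29.4 and 83.0 times in the normal group. All 4 normal libraries were above all 4 hyperlipidemic ones, normal replicate 1 by little, and the wide span came from normal replicates 3 and 4. This ratio was chosen after the values were seen and was not tested.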
